A study of Mus musculus with 4 samples.

Results

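The 10 genes described here are Hmga1, Hmga2, Lin28a, Lin28b, Igf2bp1, Igf2bp2, Igf2bp3, Trim71, Nr6a1 and Mycn, a set known for its high activity in early embryonic progenitors. They were picked by gene symbol, after matching the table's Ensembl identifiers without their version to GENCODE M21, and all 10 were found among 34866 identifiers. The samples were primary neural stem and progenitor cells from mouse dorsal telencephalon at E11.5, the stage just as the cortex starts to make neurons, grown as neurospheres (floating clusters) with basic fibroblast growth factor until day 5. Triple knockdown cells (sh3F in the labels; 2 libraries) received 3 lentiviral vectors at plating, each at a multiplicity of infection of 10. The hairpin against Phf21b was in pCS-EG, and those against Zfp7 and Zfp57 were in pLV-EG; the genotype label spells the first targets Phf21 and Sfp7. The shControl cells (2 libraries) received 1 vector, CS-EG-shControl, at a multiplicity of infection of 30. Both groups were therefore transduced, and they differed in the number of vectors and partly in vector backbone as well as in hairpins, and the labels put all 4 libraries in 1 batch. The question is whether these genes differed when the 3 factors were targeted together.

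Lin28a and Lin28b encode RNA-binding proteins that block the maturation of let-7 microRNAs, and let-7 in turn represses many messages of early embryos, Lin28 and Hmga2 messages included. HMGA proteins bend AT-rich DNA and open chromatin, and Hmga2 is known to promote self-renewal of young neural stem cells. IGF2BP proteins bind messages and affect their stability and translation, Trim71 is a ubiquitin ligase and RNA-binding repressor, Nr6a1 is an orphan nuclear receptor, and Mycn is a growth-promoting transcription factor. Levels of most of these genes are known to decline as cortical progenitors age.

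The feature that ties most of these genes to let-7 is the seed, bases 2 to 8 of the microRNA, which pairs with messages. RefSeq (GRCm38.p6) lists 9 mature sequences of the family under 5p names, and all 9 share 1 seed. The 3 printed here differ outside the seed and show what the family shares, with the seed in capitals, and the levels of these microRNAs were not measured.
mmu-let-7a-5p: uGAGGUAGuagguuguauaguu
mmu-let-7b-5p: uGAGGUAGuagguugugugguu
mmu-miR-98-5p: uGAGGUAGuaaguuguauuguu

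The 3' untranslated region (UTR) of each gene, taken from the GENCODE M21 transcripts, was searched on the transcript strand for CTACCTC, the reverse complement of the seed. The longer match CTACCTCA, which ends in an A opposite base 1, contains the shorter one. Of the 10 genes, 9 held at least 1 match and 8 held at least 1 of the longer kind. Nr6a1 had 8 matches, Hmga2, Lin28b, Igf2bp1 and Trim71 had 4 each, Lin28a had 2, Hmga1, Igf2bp2 and Igf2bp3 had 1 each, and Mycn had 0. All 4 matches of Trim71 are shown, since it had the largest difference between the groups, and the match nearest the stop codon is shown for Hmga2, Lin28a, Lin28b and Igf2bp3, the other genes whose values are discussed most. Capitals mark the match, and coordinates are GRCm38.
Trim71 match 1, chr9:114512472-114512501, minus strand: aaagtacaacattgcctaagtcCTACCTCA
Trim71 match 2, chr9:114512376-114512405, minus strand: cctgtgaagtgataatttctatCTACCTCA
Trim71 match 3, chr9:114509047-114509076, minus strand: gattttgtttagtatggattttCTACCTCA
Trim71 match 4, chr9:114509021-114509050, minus strand: ctcaattttggcaaaaagttgtCTACCTCA
Hmga2 match 1, chr10:120364224-120364253, minus strand: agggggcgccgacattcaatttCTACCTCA
Lin28a match 1, chr4:134005189-134005218, minus strand: ttggagtgcacagcctgttgaaCTACCTCA
Lin28b match 1, chr10:45381022-45381051, minus strand: tcccttcacccgggcgggaagtCTACCTCA
Igf2bp3 match 1, chr6:49086787-49086816, minus strand: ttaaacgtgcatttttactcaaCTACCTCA

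Such matches were uncommon in general. Among 13357 tested genes with an annotated 3' UTR, 11.48% held at least 1 match, and 12 genes held 4 or more, of which 5 are Hmga2, Lin28b, Igf2bp1, Trim71 and Nr6a1. Long UTRs hold more matches. The shares that follow leave out all 10 genes described here. Of 2052 other tested genes with a UTR between 0.8 and 1.25 times as long as that of Hmga2 (3014 bases), 0.0975% held as many matches. The same share was 0.111% of 902 genes for Trim71 (5512 bases) and 0.152% of 657 genes for Igf2bp1 (6337 bases), and in each of these 3 cases it stands for very few genes. For Igf2bp3, with 2119 bases and a single match, it was 13.3% of 2271 genes. It was 1.73% for Lin28a, 8.37% for Hmga1 and 12.5% for Igf2bp2, and 0.0733% for Lin28b and 0% for Nr6a1. Lin28 and Hmga2 messages are known let-7 targets, so the low shares follow in part from the choice of genes. A match is a stretch of letters, and binding at these places was not measured.

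Total estimated counts were 17901386 and 15170491 in the triple knockdown libraries and 20779211 and 14694387 in the shControl libraries. Mitochondrial genes took 26.6% and 28.5% of the counts in knockdown and 30.3% and 33.9% in control libraries, so the groups did not overlap and shControl replicate 2 stood highest. The 3 targeted genes measured 10.7 and 9.32 CPM (counts-per-million, scaled by TMM) against 14.6 and 11.8 CPM for Zfp57, 5.49 and 6.45 against 7.25 and 7.36 CPM for Phf21b, and 1.97 and 0.977 against 1.67 and 2.25 CPM for Zfp7, knockdown first. None of these 3 differences passed the threshold (edgeR adjusted p = 0.341, 0.644 and 0.80), so the knockdown is known here from the labels. Progenitor markers were abundant: Fabp7, a fatty acid-binding protein of radial glia, ranged from 20101 to 27555 CPM, and 10 of 10 progenitor markers passed the filter on low counts. Marker sums of other cells were low but not 0. Embryonic globin and other red-cell genes summed to 42.2 and 40.0 CPM in knockdown and 27.3 and 29.4 CPM in control libraries, and macrophage genes to 38.1 and 31.3 against 34.0 and 37.1 CPM. Endothelial genes summed to 5.86 and 5.34 against 5.02 and 6.08 CPM, and mesenchymal genes to 51.8 and 53.8 against 56.1 and 51.2 CPM. Neuron markers summed to 708 and 742 CPM in knockdown and 945 and 858 CPM in control libraries, and astroglial and late-progenitor markers to 239 and 242 against 295 and 297 CPM. In these lists 2 of 8 tested neuron markers and 3 of 9 tested astroglial markers were lower past the threshold used below. Of 6 tested red-cell markers 1 was higher. Past the same threshold 0.826% of all tested genes were lower and 0.541% higher. The astroglial list was mixed, with 7 log2 fold changes (knockdown over control) below 0 and 2 above. Hopx, its most abundant gene, had -0.53, while Slc1a3 had -0.01, Nfib -0.08, Nfix 0.04 and Nfia 0.16.

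None of the 10 genes passed the threshold of an adjusted p of 0.05 over all tested genes. All 10 were tested, and 0 passed in edgeR's quasi-likelihood test and 0 in DESeq2, while 3 had an unadjusted edgeR p under 0.05, 2 of them higher and 1 lower. Of all 14050 tested genes, 1.37% passed the threshold (0.541% higher and 0.826% lower). The share with an unadjusted p under 0.05 was 12.0% (5.14% higher and 6.85% lower). The passing genes numbered 76 higher and 116 lower, and 77 and 28 with scaling by library totals alone. Hmga2 and Trim71 lay higher in both knockdown libraries than in both control libraries, and Igf2bp3 and Nr6a1 lay lower. These 4 of 10 without overlap compare with 41.3% of all tested genes, of which 19.6% were higher and 21.7% lower, so the share is near the background. A log2 fold change above 0.5 in size was found in 2 of the 10 and in 15.2% of all tested genes. Trim71 is in both of these counts and in that of genes with an unadjusted p under 0.05. It passed the filter on low counts only through its knockdown libraries. The median log2 fold change (knockdown over control) was -0.04 over the 10 genes and -0.01 over all tested genes, with 4 of the 10 above 0 and 6 below. In such bulk samples, fewer cells of a type and less RNA per cell cannot be told apart.

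**Figure D1:**
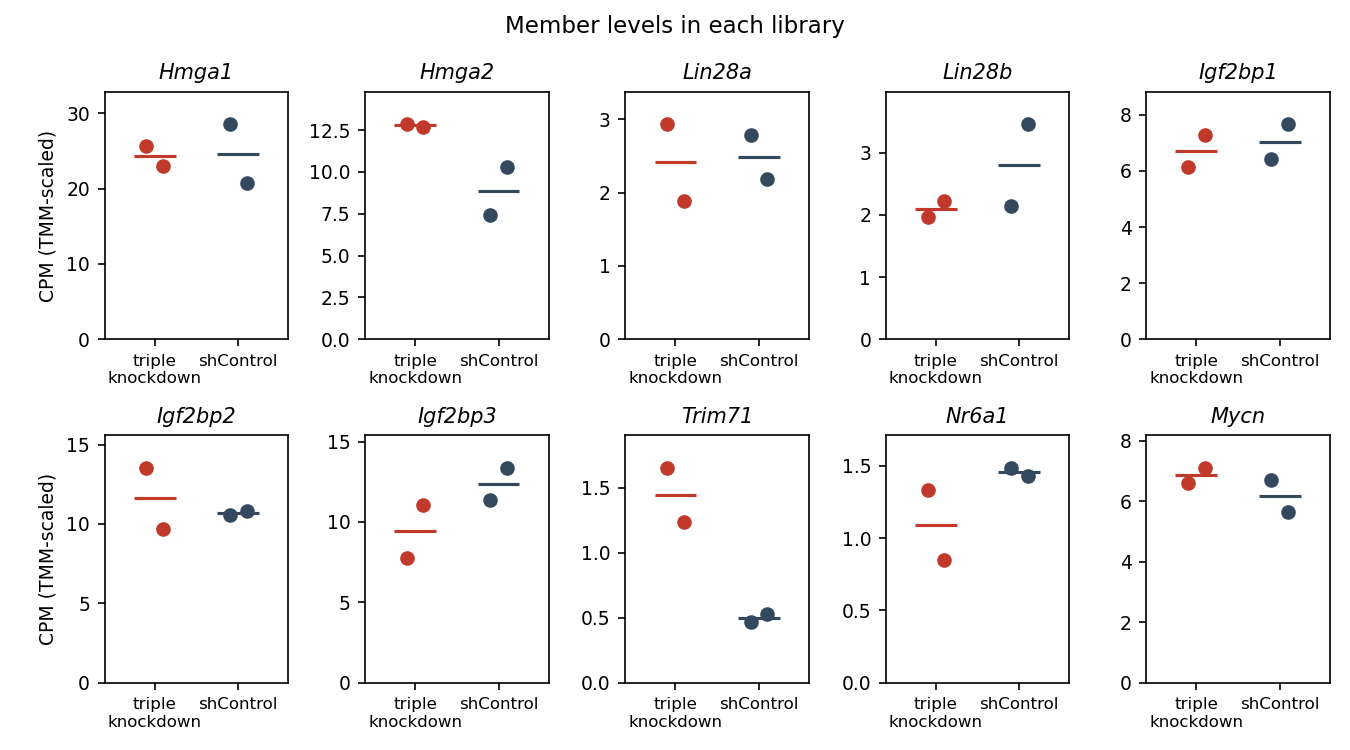
Level of each of the 10 genes in CPM (counts-per-million scaled by TMM; each panel has its own axis from 0) in the 2 triple knockdown and the 2 shControl libraries; points are libraries and lines are group means. Hmga2 and Trim71 lie higher and Igf2bp3 and Nr6a1 lower in both knockdown libraries, and the groups of the other 6 genes overlap.

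Trim71, also known as Lin41, had the largest fold difference of the set and the lowest counts. It is encoded on chromosome 9 (ENSMUSG00000079259.2, 114507133 to 114564369, minus strand). It had 31 and 19 counts in knockdown libraries and 10 and 7 in control libraries, or 1.65 and 1.24 CPM against 0.464 and 0.526 CPM. Both knockdown libraries lay above both controls. The log2 fold change was 1.55 (SE 0.54), that is 2.94-fold with a 95% interval of 1.39 to 6.20, and it did not pass (edgeR adjusted p = 0.152; 0.14 to 0.99 over the alternatives). From counting error alone, the ratio of 50 to 17 summed counts was 3.0 with an interval of 1.70 to 5.55. Both control libraries lay under about 0.605 CPM, the level of the filter on low counts, so the gene entered the test through its knockdown libraries, and a gene that enters this way had to differ. An opposite-strand gene that overlaps 1.45% of its exonic bases, C130032M10Rik, had 0 counts in every library. Red-cell markers, the sums of which are given above, were also higher in both knockdown libraries, and their part in this difference was not tested.

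Hmga2 was the second gene with higher values in both knockdown libraries. The gene lies on chromosome 10 (ENSMUSG00000056758.14, 120361275 to 120476469, minus strand). It measured 12.8 and 12.7 CPM in knockdown and 7.43 and 10.3 CPM in control libraries, from 241 and 195 against 160 and 137 counts. The knockdown libraries were nearly equal, and most of the spread lay between the controls. The log2 fold change of 0.55 (SE 0.19; 1.46-fold, 95% interval 1.12 to 1.90) did not pass (edgeR adjusted p = 0.15). A total of 481 tested genes had a smaller p. The log2 fold change was 0.79 when shControl replicate 2 was left out and 0.31 when replicate 1 of that group was left out. Each of these fits leaves 1 control library, so the spread between controls does not enter them. With all 4 libraries, adjusted p ran from 0.14 (edgeR) to 0.69 (DESeq2) over the alternatives. The library with the highest mitochondrial share (33.9%) was shControl replicate 2, and the part of that share in the Hmga2 difference was not tested.

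Hmga1, the other AT-hook gene, was the most abundant of the set and differed by less than the spread between libraries. The gene lies on chromosome 17 (ENSMUSG00000046711.16, 27556497 to 27563674, plus strand). It measured 25.7 and 23.0 CPM in knockdown and 28.6 and 20.7 CPM in control libraries. The knockdown values lay between the control values, and the log2 fold change was -0.03 (95% interval -0.34 to 0.29; edgeR adjusted p = 0.971), or 0.05 with scaling by library totals alone. Opposite-strand genes overlap 5.84% of the exonic bases of Hmga1, and the use of strand in counting is not given. Among them AI413582 measured 19.3 and 16.4 CPM in knockdown and 20.4 and 25.3 CPM in control libraries. The Hmga1 row is also uncertain by itself, because 62.1% of its 31-base stretches occur in Hmga1b, a near-identical copy on chromosome 11. Hmga1b measured 7.78 and 7.43 CPM against 11.0 and 6.84 CPM, and the rows summed gave 33.4 and 30.4 CPM in knockdown and 39.6 and 27.6 CPM in control libraries (log2 fold change -0.08, edgeR adjusted p = 0.89). Within a library, where no scaling enters, the ratio of Hmga2 to Hmga1 counts was 0.50 and 0.553 in knockdown and 0.26 and 0.496 in control libraries. The knockdown ratios lay higher, though the lower of them was close to that of shControl replicate 2.

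The Lin28 pair was low and showed no difference beyond the spread. Lin28a (chromosome 4, ENSMUSG00000050966.9, 134003330 to 134018841, minus strand) had 55 and 29 counts in knockdown and 60 and 29 in control libraries, or 2.93 and 1.89 against 2.79 and 2.18 CPM. Each group spanned much the same range. Its log2 fold change was -0.05 with a 95% interval of -0.71 to 0.62 (edgeR adjusted p = 0.977) and 0.03 with scaling by library totals alone. Gm13061, on the opposite strand, overlaps 5.86% of the exonic bases of Lin28a and was not analysed here. Lin28b (chromosome 10, ENSMUSG00000063804.8, 45376620 to 45486395, minus strand) measured 1.97 and 2.22 CPM in knockdown and 2.14 and 3.46 CPM in control libraries. Here shControl replicate 2 stood above the other 3 libraries, which lay close together. The log2 fold change was -0.39 (SE 0.34, 95% interval -1.07 to 0.30; edgeR adjusted p = 0.725). Leaving out shControl replicate 2 gave -0.02, and leaving out replicate 1 of that group gave -0.73. Counts this low leave wide intervals, and that of Lin28b holds values well below 0 as well as above it.

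**Figure D2:**
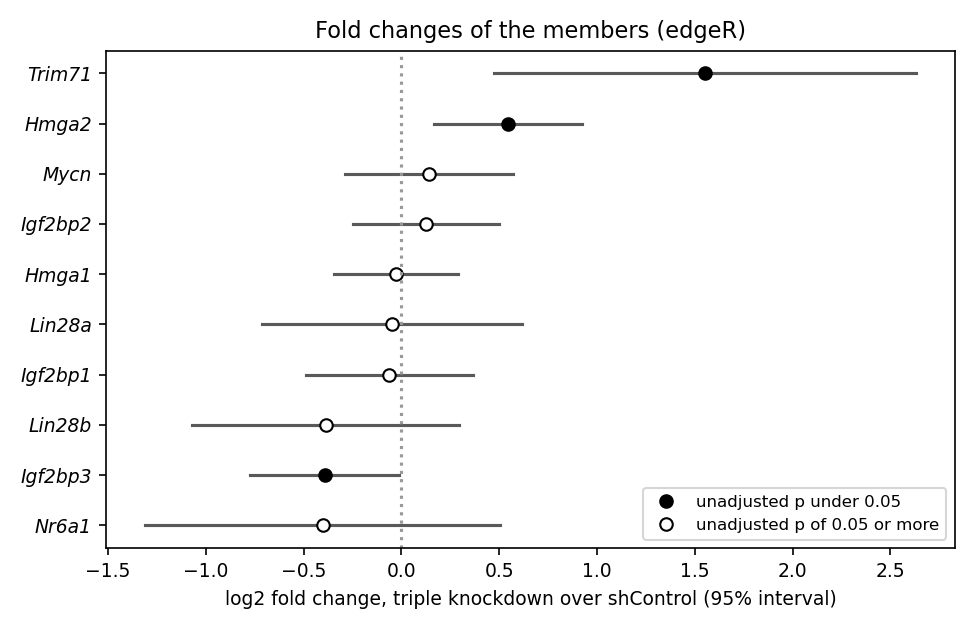
Log2 fold change of each gene, triple knockdown over shControl, with its 95% interval from edgeR (horizontal axis); filled points have an unadjusted p under 0.05. The intervals of Trim71, Hmga2 and Igf2bp3 leave out 0 before adjustment, those of the other 7 genes cover it, and 0 of 10 passed after adjustment. Trim71 entered the test through its knockdown libraries and so had to differ, and its interval gives no support.

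Of the IGF2BP family, which binds messages in the cytoplasm, only Igf2bp3 had separated groups. Igf2bp3 (chromosome 6, ENSMUSG00000029814.10, 49085223 to 49214957, minus strand) measured 7.78 and 11.1 CPM in knockdown and 11.4 and 13.4 CPM in control libraries. Triple knockdown replicate 1 was lowest, and replicate 2 was just under the nearer control. The log2 fold change was -0.39 (SE 0.19, 95% interval -0.77 to -0.01), which did not pass (edgeR adjusted p = 0.394). Leaving out triple knockdown replicate 1 gave -0.15, and leaving out replicate 2 of that group gave -0.66. Malsu1, on the opposite strand, overlaps 18.7% of its exonic bases and was more abundant, at 42.5 and 41.7 against 36.7 and 37.7 CPM. The sources used here do not give the use of strand in counting, so reads from the shared stretch cannot be assigned with certainty.

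Igf2bp1 and Igf2bp2 overlapped between the groups. Igf2bp1 (chromosome 11, ENSMUSG00000013415.9, 95957163 to 96005940, minus strand) measured 6.13 and 7.30 CPM in knockdown and 6.41 and 7.66 CPM in control libraries, with a log2 fold change of -0.06 (95% interval -0.49 to 0.37; edgeR adjusted p = 0.952; 0.02 with scaling by library totals alone). Igf2bp2 (chromosome 16, ENSMUSG00000033581.17, 22059009 to 22163299, minus strand) measured 13.5 and 9.71 CPM in knockdown and 10.6 and 10.8 CPM in control libraries. Its control libraries were nearly equal, and the knockdown libraries lay on either side of them. The log2 fold change of 0.13 (95% interval -0.25 to 0.50; edgeR adjusted p = 0.859) moved to 0.34 when triple knockdown replicate 2 was left out and to -0.14 when replicate 1 of that group was. The ratio of Igf2bp3 to Igf2bp2 counts was 0.576 and 1.14 in knockdown and 1.08 and 1.24 in control libraries, so it overlapped between the groups and was low in triple knockdown replicate 1.

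The transcription factors Nr6a1 and Mycn did not pass either. Nr6a1 (chromosome 2, ENSMUSG00000063972.13, 38723370 to 38927688, minus strand), which represses pluripotency genes in early embryos, had 24.8 and 13.2 estimated counts in knockdown and 32.4 and 19.3 in control libraries. In CPM these were 1.33 and 0.847 against 1.49 and 1.43, so the groups did not overlap, by a small margin. The log2 fold change was -0.40 (SE 0.46, 95% interval -1.31 to 0.50; edgeR adjusted p = 0.803), and leaving out triple knockdown replicate 1 or 2 gave -0.78 or -0.13. Mycn (chromosome 12, ENSMUSG00000037169.15, 12936093 to 12941914, minus strand) measured 6.61 and 7.10 CPM in knockdown and 6.69 and 5.63 CPM in control libraries. The knockdown libraries lay around the higher control, and the log2 fold change was 0.14 (95% interval -0.29 to 0.57; edgeR adjusted p = 0.868).

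**Figure D3:**
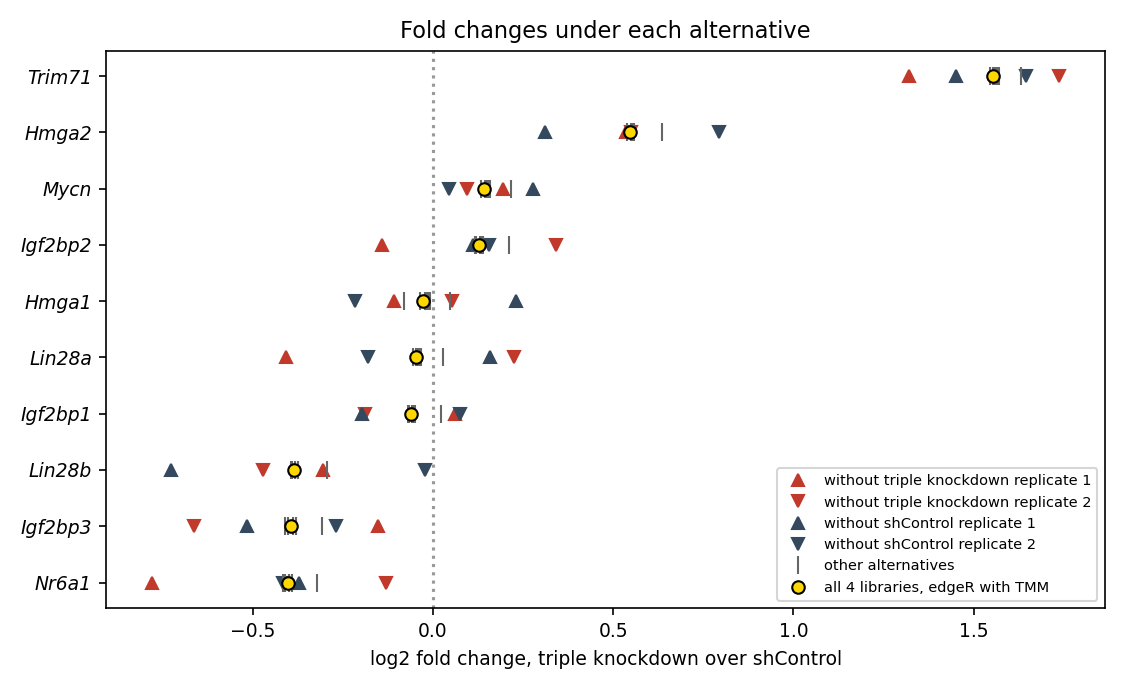
Log2 fold change of each gene, triple knockdown over shControl (horizontal axis), with all 4 libraries (circles), without each library in turn (triangles) and under the other alternatives (ticks). Trim71, which entered the test through its knockdown libraries, stays between 1.32 and 1.74. Hmga2 stays between 0.31 and 0.79, while Hmga1, Lin28a, Igf2bp1 and Igf2bp2 lie on both sides of 0.

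Per kilobase of merged exons the 10 genes spanned a wide range of levels in these cells. Hmga1 led at 11.46 ± 0.897 CPM per kilobase in knockdown and 11.6 ± 2.61 in control libraries (SD, n = 2 each). Its lowest library was above every library of the next genes. Mycn (2.08 ± 0.106 against 1.87 ± 0.226), Hmga2 (1.89 ± 0.0148 against 1.31 ± 0.299), Igf2bp2 (1.57 ± 0.366 against 1.45 ± 0.0218) and Igf2bp3 (1.16 ± 0.285 against 1.52 ± 0.173 CPM per kilobase, knockdown first) formed a middle group in which each neighbour's libraries overlapped the next. Igf2bp1 and Lin28a came next, at 0.693 ± 0.0852 and 0.603 ± 0.184 CPM per kilobase in knockdown and 0.727 ± 0.0915 and 0.621 ± 0.108 in control libraries, and overlapped each other. Lin28b followed at 0.231 ± 0.0189 against 0.308 ± 0.103 CPM per kilobase. Nr6a1 and Trim71 were lowest: Nr6a1 had 0.101 ± 0.0317 and Trim71 0.155 ± 0.0314 CPM per kilobase in knockdown, against 0.135 ± 0.00385 for Nr6a1 and 0.0531 ± 0.00465 for Trim71 in control libraries. The ranks of Hmga2 and Igf2bp3 were 3 and 5 in knockdown and 5 and 3 in control libraries. With the longest transcript as the length, 6 of 10 genes had the same rank by the mean over 4 libraries, and the changes lay within the middle group. In knockdown libraries Nr6a1 then lay above Trim71, at 0.172 ± 0.0542 against 0.155 ± 0.0314 CPM per kilobase.

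**Figure D4:**
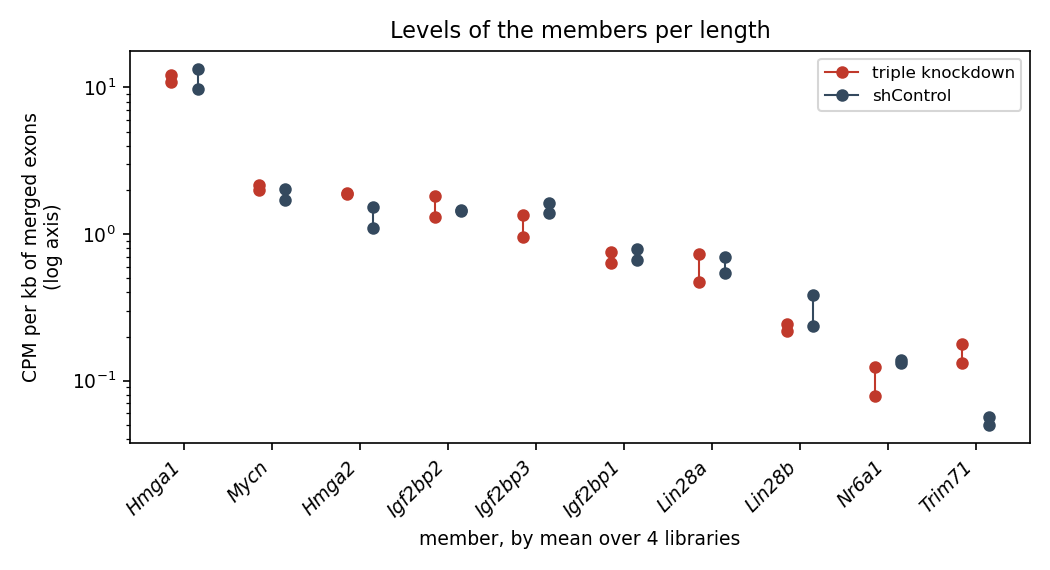
Levels in CPM per kilobase of merged exon length (log axis) of the 10 genes, ordered by the mean over 4 libraries; points are libraries, triple knockdown left of shControl. Hmga1 stands alone at the top, 4 genes between 0.954 and 2.16 overlap, and Nr6a1 and Trim71 share the bottom.

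Fold changes were set beside the number of let-7 seed matches over all tested genes with an annotated 3' UTR. The median log2 fold change was -0.02 in 11824 genes with 0 matches, -0.02 in 1330 genes with 1, 0.06 in 171 genes with 2, 0.04 in 20 genes with 3 and -0.04 in 12 genes with 4 or more. In the last class the values ran from -0.41 for Nudt12, a nucleotide hydrolase, to 1.55 for Trim71. The 7 genes in it other than Hmga2, Lin28b, Igf2bp1, Trim71 and Nr6a1 included 3 above 0 and 4 below 0. Long UTRs hold more matches, and those of D10Wsu102e and Zbtb37, merged over transcripts, spanned 122583 and 17481 bases. With the UTR of the longest transcript alone, 11 genes held 4 or more matches. D10Wsu102e measured 148 and 126 CPM in knockdown and 95.7 and 115 CPM in control libraries (log2 fold change 0.38, edgeR adjusted p = 0.161). Mettl6, a tRNA methyltransferase, measured 34.4 and 34.1 against 26.1 and 26.9 CPM (log2 fold change 0.37, edgeR adjusted p = 0.246). Both genes lay higher in both knockdown libraries. Mcf2l measured 6.40 and 6.38 CPM in knockdown and 6.55 and 9.24 CPM in control libraries, and Nudt12 measured 1.87 and 1.63 against 1.95 and 2.78 CPM. These lay lower in both knockdown libraries. The groups overlapped for Trim6, a ubiquitin ligase (2.45 and 1.56 against 0.882 and 1.88 CPM), for Hic2, a transcriptional repressor (2.13 and 2.87 against 2.65 and 2.33 CPM), and for Zbtb37, a zinc finger gene (6.29 and 4.30 against 5.39 and 6.08 CPM). None of the 12 passed in edgeR (lowest adjusted p = 0.15).

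**Figure D5:**
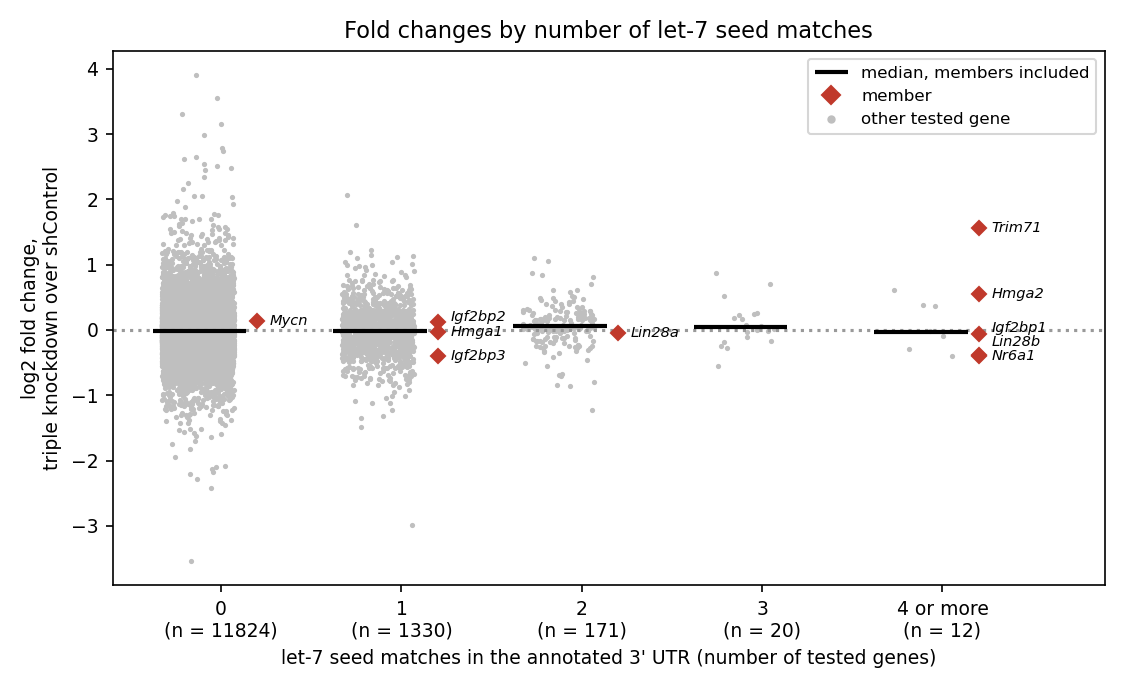
Log2 fold change, triple knockdown over shControl (vertical axis), of all tested genes with an annotated 3' UTR by the number of let-7 seed matches in it; grey points are genes, black lines the medians and diamonds the 10 named genes. Medians lie between -0.04 and 0.06 in every class, and among genes with 4 or more matches the diamonds run from -0.40 for Nr6a1 to 1.55 for Trim71.

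Genes that work with these 10 were described through 10 lists, with 94 tested genes in all. Of these, 1 was lower and 0 were higher past the threshold, against 1.37% of all tested genes, and DESeq2 gave 0. The lower gene was Nr2f1 (COUP-TFI), an orphan nuclear receptor known to be needed for neural stem cells to switch from making neurons to making glia, in the list of other early timing genes. It measured 33.4 and 34.3 CPM in knockdown and 49.6 and 48.2 CPM in control libraries (log2 fold change -0.53, SE 0.14; edgeR adjusted p = 0.0288). Its relative Nr2f2, named here after its values were seen, measured 5.92 and 8.66 against 11.3 and 11.2 CPM (edgeR adjusted p = 0.0945). Over the 8 tested timing genes the median log2 fold change was -0.27, and -0.06 when triple knockdown replicate 1 was left out. The count over the 10 lists was 0 when either triple knockdown library was left out, and 2 or 4 when shControl replicate 1 or 2 was.

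The machinery that makes and blocks let-7 gave no calls. Of 19 tested genes in this list 0 passed in edgeR and 3 had an unadjusted p under 0.05, and the log2 fold changes ran from -0.72 to 0.47. Their median was -0.07, -0.017 when shControl replicate 1 was left out and 0.0094 with scaling by library totals alone. Hnrnpa1, which binds let-7 precursors and many messages, measured 1146 and 1330 CPM in knockdown and 972 and 817 CPM in control libraries, and the RNA helicase Ddx5 measured 309 and 326 against 330 and 298 CPM. Dicer1, the enzyme that cuts the precursors, measured 14.7 and 12.5 against 11.4 and 13.2 CPM. Tut4, which adds a uridine tail to precursors bound by Lin28, measured 4.69 and 4.76 against 4.41 and 5.33 CPM. Its relative Tut7, with the same activity, measured 22.2 and 18.2 CPM in knockdown and 14.03 and 17.5 CPM in control libraries (log2 fold change 0.37, edgeR adjusted p = 0.341). Ago4, an Argonaute protein that carries microRNAs, measured 1.65 and 2.28 against 3.34 and 3.08 CPM (log2 fold change -0.72, edgeR adjusted p = 0.341). Hnrnpa1 and Tut7 lay higher and Ago4 lower in both knockdown libraries, and these are the 3 with an unadjusted p under 0.05. Among 7 genes listed as hosts of let-7 hairpins, 2 were tested, Wdr82 and Huwe1. Wdr82 had 31.1 and 38.6 CPM in knockdown and 38.2 and 33.2 CPM in control libraries. Huwe1 had 22.7 and 23.4 against 25.1 and 30.1 CPM. Their median log2 fold change was -0.15, and -0.06 or -0.24 when triple knockdown replicate 1 or 2 was left out. Found by position instead, 4 of 7 host genes were in the table, with a median log2 fold change of -0.15, and the other 3 were not analysed here. Host transcripts are not the mature microRNAs.

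Other known let-7 targets gave no calls. Of 28 tested, 0 passed in edgeR and 2 had an unadjusted p under 0.05, and the median log2 fold change was 0.03. That median was 0.15 when shControl replicate 2 was left out, 0.012 when replicate 1 of that group was, 0.055 or 0.016 when triple knockdown replicate 1 or 2 was, and 0.11 with scaling by library totals alone. Ccnd2, a cyclin of dividing progenitors, measured 94.5 and 95.7 CPM in knockdown and 98.0 and 95.9 CPM in control libraries.

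Relatives and partners of Mycn, HMGA and Trim71 gave no calls. In the MYC-MAX network 0 of 12 genes passed in edgeR, 1 had an unadjusted p under 0.05, and 10 had log2 fold changes below 0. The median was -0.26, against -0.01 over all tested genes, and -0.18 with scaling by library totals alone. It was -0.20 or -0.25 when shControl replicate 1 or 2 was left out, and -0.24 or -0.22 when triple knockdown replicate 1 or 2 was. Max, the shared partner, measured 30.9 and 33.2 CPM in knockdown and 39.9 and 29.4 CPM in control libraries, and its relative Mlx 18.0 and 18.6 against 20.6 and 19.7 CPM. Among 9 HMG genes of other families the median was 0.01, with 0 passing and 2 with an unadjusted p under 0.05. It was 0.08 or -0.16 when triple knockdown replicate 1 or 2 was left out, and -0.016 or -0.069 when shControl replicate 1 or 2 was. Hmgb2 measured 1060 and 1202 against 975 and 968 CPM, and Hmgb1 876 and 1072 against 1048 and 983 CPM. The TRIM-NHL relatives of Trim71 had a median of -0.30 over 3 genes, with 0 passing and 0 with an unadjusted p under 0.05. It was -0.09 when shControl replicate 2 was left out and -0.48 when replicate 1 of that group was. Of them Trim2 had 17.1 and 15.8 against 17.7 and 23.0 CPM, and Trim32 11.0 and 10.8 against 10.5 and 11.3 CPM.

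Messages bound by IGF2BP proteins and genes tied to Hmga2 or to pluripotency also gave no calls. Of 5 tested IGF2BP cargo messages 0 passed in edgeR and 3 had an unadjusted p under 0.05, with a median log2 fold change of -0.39. Actb measured 446 and 444 CPM in knockdown and 519 and 442 CPM in control libraries, and Mapt, the neuronal protein tau, 19.1 and 18.3 against 24.2 and 24.6 CPM. Neuron markers were lower in both knockdown libraries, as summed above, and their part in the Mapt value was not tested. Igf2, an imprinted growth factor gene named here after its values were seen, measured 1.97 and 1.82 against 3.81 and 4.13 CPM (log2 fold change -1.05, edgeR adjusted p = 0.0672). In the Hmga2-linked list 0 of 6 passed, 1 (Igf2) had an unadjusted p under 0.05, and the median was -0.24. It was -0.40 or -0.11 when triple knockdown replicate 1 or 2 was left out, and -0.10 when shControl replicate 1 was. Cdkn1a measured 16.3 and 14.9 against 23.9 and 13.7 CPM, and Igf1r 11.1 and 11.0 against 9.10 and 13.2 CPM. Among 12 pluripotency genes 5 were tested and 0 passed, with 2 at an unadjusted p under 0.05 and a median log2 fold change of 0.49. Leaving out shControl replicate 1 or 2 gave 0.077 or 0.92, and leaving out triple knockdown replicate 1 gave 0.33. Sox2, a progenitor gene as well, measured 49.997 and 55.6 against 66.9 and 62.1 CPM, and Sall4 2.98 and 3.13 against 1.63 and 1.65 CPM (edgeR adjusted p = 0.366 and 0.216). Pou5f1, which Nr6a1 is known to repress, had at most 1 count in any library.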

How the data were processed

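Messenger RNA levels were measured by RNA sequencing of 4 libraries, made per the labels' protocols with an NEBNext Ultra II RNA kit from total RNA. The authors deposited estimated counts per gene, not normalized, and per the submitters' processing notes they came from Salmon with GRCm38 and mm10. The sources used here do not give the Salmon version, annotation release, strand setting or selection of transcripts. Counts were rounded to whole numbers. Symbols came from GENCODE M21 for 34652 of 34866 identifiers. The test was edgeR 4.0.16 (R 4.3.3) with TMM factors, filterByExpr at a minimum count of 10 (14050 genes kept), a robust quasi-likelihood fit with group as the only term, and Benjamini-Hochberg adjustment over all tested genes at 0.05, two-sided. It was tested on simulated data, where 70% of 2-fold and 96% of 4-fold changes were recovered and 8 unchanged genes were called. The simulation gave every gene the same spread, unlike real genes, so these shares need not hold here. SE is the log2 fold change divided by the square root of F, and 95% intervals use it. DESeq2 1.42.0 was an alternative. With 2 libraries a group, the smallest p of an exact permutation test is 0.33, so none was used. The labels do not say that replicates came from separate cultures, so p-values measure only the spread between these libraries. Intervals from counting cover counting error only. The 10 genes and all lists were chosen with earlier results of these data known. From each partner list, genes past the threshold were named, or else the 2 with the highest mean CPM, and Dicer1, Tut4, Tut7, Ago4, Pou5f1, Nr2f2, Igf2 and the genes with 4 or more let-7 matches were named outside this rule. H19 was not analysed here, and 1 gene that the rule names is not reported here.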

Additional observations from a re-analysis of the deposited data

How the results depend on the processing

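The count of 0 of the 10 genes past the threshold was the same with RLE size factors, library totals alone, DESeq2, either other filter on low counts and the replicate block, and ran from 0 to 1 (Hmga2) without 1 library. Hmga2 and Mycn stayed above 0, and Lin28b, Igf2bp3 and Nr6a1 below 0, in all 10 alternatives each. Trim71 stayed above 0 too, but it entered the test through its knockdown libraries, so its steady direction gives no support. The alternatives reuse the same 4 libraries, so a steady direction is not independent support for the other genes either. The 95% intervals of Mycn, Lin28b and Nr6a1 covered 0. With library totals alone the log2 fold changes of Hmga1, Lin28a and Igf2bp1 turned to 0.048, 0.029 and 0.023; this scaling moved the median of all tested genes to 0.072, against -0.01. Without 1 library Hmga1 ran from -0.22 to 0.23, Lin28a from -0.41 to 0.22, Igf2bp1 from -0.20 to 0.074 and Igf2bp2 from -0.14 to 0.34.

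Over all genes, 192 passed (76 higher, 116 lower), against 105 (77 and 28) with library totals alone and 69 (30 and 39) with DESeq2; the cause was not tested. Without 1 library the counts were 44 and 63 (triple knockdown replicate 1 or 2 left out) and 296 and 614 (shControl replicate 1 or 2 left out), with 27 to 280 higher and 17 to 334 lower. The partner list count of 1 was 0 with DESeq2 and 0 with the replicate block, and ran from 0 to 4 without 1 library. The median over partner genes was -0.06, 0.021 with library totals alone, and ran from -0.075 to -0.019 without 1 library. With the longest transcript 6 of 10 ranks were kept. The replicate numbers could not be shown to pair libraries, since same-numbered deviations correlated at -0.03 over genes; the replicate block gave 172 calls over all genes and 0 among the 10. Depth limits Trim71, Nr6a1, Lin28a and Lin28b most.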
